A study of Mus musculus with 6 samples.

Results

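The 41 genes described here encode the enzymes of mitochondrial and peroxisomal fatty acid oxidation, the proteins that activate and carry fatty acids to them, and 4 of their transcriptional regulators. They were taken from a table of 55426 features as the rows whose Ensembl gene identifiers carry these names in GENCODE M21, and all 41 were found. RNA was measured in pancreatic stellate cells (PSCs), the resident fibroblast precursors of the pancreas, grown together with pancreatic ductal adenocarcinoma (PDAC) organoids under 21% O2 (normoxia, 3 libraries) or 1% O2 (hypoxia, 3 libraries) for 48 h, which asks how low oxygen alters the PSC transcriptome beside tumor cells. PSCs in both groups were primary lines of few passages from wild-type C57BL/6 mice of both sexes aged 8 to 12 weeks, embedded in Matrigel in a transwell insert, and in both groups the lower chamber held organoids of mT3, a single line from a mouse tumor that carried Trp53 LSL-R172H and Pdx1-Cre among its alleles, which drives Cre in the pancreatic epithelium. PSCs without tumor cells were not part of these libraries. The sources do not say whether the 3 libraries of a group came from separate PSC lines, so p-values measure only the spread between these libraries, which may be technical.

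Fatty acids are first joined to coenzyme A by acyl-CoA synthetases. Long-chain acyl groups then pass into mitochondria as carnitine esters through CPT1, the carnitine carrier and CPT2, and CPT1 is the step that malonyl-CoA restrains. Inside, a repeating cycle of dehydrogenation, hydration, a further dehydrogenation and thiolysis releases acetyl-CoA, and the flavoproteins ETF and ETF dehydrogenase hand electrons from the first dehydrogenation to ubiquinone. Peroxisomes run a parallel cycle whose first enzyme is an oxidase that passes electrons to oxygen, and they shorten very long and branched chains. PPAR nuclear receptors and PGC-1 coactivators switch on many of these genes.

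The libraries held 24749601 to 31925054 counts, and a gene present at 3 counts in a library, taken as the floor, stood at 0.0943 to 0.122 CPM, the count scaled to the size of its library. Such limits cover counting error only. All 12 genes of a list of well known hypoxia-induced transcripts were higher at 1% O2. Fibroblast and stellate markers summed to 28090 to 35240 CPM under normoxia and 30300 to 35090 CPM under hypoxia, a sum that is mostly collagen, and none of these 10 markers was at 0 in all libraries. Within the list Lum was called lower and Pdgfra and Pdpn higher (log2 fold changes −2.17, 0.82 and 0.99), genes named after their values were seen. Normoxia replicate 2 stood apart from the other normoxic libraries, with a chi-square per degree of freedom of 22.4 and 16.02 against them, where normoxia replicates 1 and 3 gave 6.32. It held the highest of the 3 normoxic values for 29 of the 40 members that could be tested, against 43.1% of all tested genes.

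Fatty acid oxidation genes were mostly lower under hypoxia, and 10 of the 15 that passed the calling rule were mitochondrial enzymes downstream of the carnitine shuttle. A gene is called here when its fold change is beyond 1.5 and its edgeR adjusted p is under 0.05. By this rule 15 of the 40 tested members were lower, or 37.5%, where 15.3% of all 16207 tested genes were, and 4 members were higher, or 10% of them, where 18.9% of all tested genes were. Without the fold threshold 29 members were lower and 8 higher, against 31% and 31.8% of all tested genes. The 3 libraries of a group did not overlap those of the other for 29 members that were lower and 8 that were higher, where this held for 34% and 34.9% of all tested genes, 68.9% together. The median log2 fold change was −0.46 over the tested members and −0.004 over all tested genes. The remaining member, Acox2, the peroxisomal oxidase of branched chains and bile acid intermediates, had 0 counts in all 6 libraries and was not tested.

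**Figure D1:**
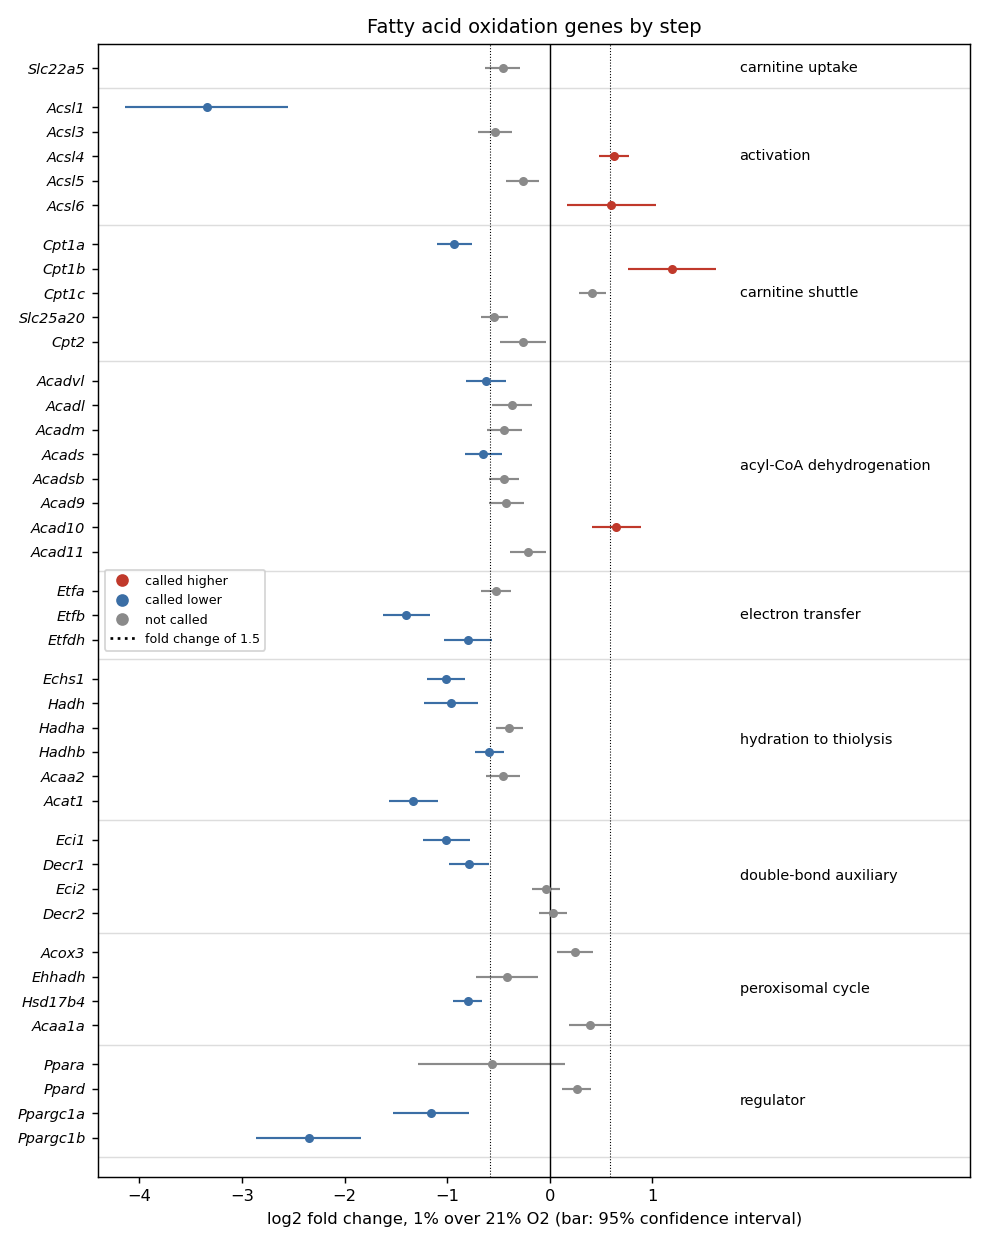
Log2 fold change of each tested member, 1% over 21% O2, with its 95% confidence interval from the edgeR fit (3 libraries a group), grouped by step of the pathway. Every member from the electron transfer and the hydration to thiolysis steps lies below 0, and the 4 called higher are Acsl4, Acsl6, Cpt1b and Acad10.

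Entry of fatty acids into the pathway changed gene by gene rather than in a single direction. Acsl1, the long-chain acyl-CoA synthetase that is most abundant in fat, heart and liver (chromosome 8, 46471037 to 46536051, plus strand, GRCm38), had the largest fold change of all members. It stood at 148, 337 and 129.5 CPM in the normoxic libraries and at 18.4, 24.3 and 17.9 CPM in the hypoxic ones. The groups did not overlap, and normoxia replicate 2 was well above the other 2 normoxic libraries. Acsl1 was 10.1-fold lower under hypoxia (log2 fold change −3.34, SE 0.352, edgeR adjusted p = 4.22e-05), and without normoxia replicate 2 its log2 fold change was −2.79. Acsl4, the isoform that prefers arachidonic acid (chromosome X, 142317993 to 142390535, minus strand), moved the other way. Its levels were 97.2, 82.4 and 87.7 CPM under normoxia and 138, 137 and 138 CPM under hypoxia, with no overlap. That is a 1.54-fold rise (log2 fold change 0.62, SE 0.0651, edgeR adjusted p = 3.99e-05), which lies just past the fold threshold and at 0.57 fell short of it without normoxia replicate 2.

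The regions around the annotated starts of these opposite-moving synthetases are given here, 250 bases before to 50 after each start (RefSeq, GRCm38.p6), in the direction of the gene, with ACGTG and GCGTG, the core of the motif bound by hypoxia-inducible factors, in capitals on either strand. RefSeq lists starts of Acsl1 19929 bases apart, and the upstream window held 3 matches and the downstream window 0. The window of Acsl4 held 1.
Acsl1, chr8:46470787-46471086, plus strand: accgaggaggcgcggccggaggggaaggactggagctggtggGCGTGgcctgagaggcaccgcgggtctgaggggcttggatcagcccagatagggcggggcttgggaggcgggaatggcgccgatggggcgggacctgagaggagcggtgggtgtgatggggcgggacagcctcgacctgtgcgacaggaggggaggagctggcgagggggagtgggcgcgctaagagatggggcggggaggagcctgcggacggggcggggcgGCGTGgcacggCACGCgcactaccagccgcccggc
Acsl1, chr8:46490716-46491015, plus strand: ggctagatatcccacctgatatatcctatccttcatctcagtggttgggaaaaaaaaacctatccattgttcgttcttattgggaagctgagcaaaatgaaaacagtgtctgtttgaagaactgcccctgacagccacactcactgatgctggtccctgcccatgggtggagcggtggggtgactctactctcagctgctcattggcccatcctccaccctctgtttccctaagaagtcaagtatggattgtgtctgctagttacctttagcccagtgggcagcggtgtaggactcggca
Acsl4, chrX:142390486-142390785, minus strand: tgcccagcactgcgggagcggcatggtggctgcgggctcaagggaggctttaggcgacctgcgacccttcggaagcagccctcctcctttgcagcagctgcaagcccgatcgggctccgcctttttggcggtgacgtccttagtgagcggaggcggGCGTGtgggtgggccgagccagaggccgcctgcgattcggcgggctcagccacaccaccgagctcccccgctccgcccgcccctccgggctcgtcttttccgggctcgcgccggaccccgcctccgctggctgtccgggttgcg

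The other synthetases changed less. Acsl6, an isoform best known from brain, was near the bottom of the measured range at 2.66, 2.20 and 3.12 CPM under normoxia and 3.34, 4.50 and 4.21 CPM under hypoxia. It rose 1.51-fold without overlap (log2 fold change 0.60, SE 0.191, edgeR adjusted p = 0.0214), a call that was lost when any of 4 libraries was left out, normoxia replicate 1 or 2 or hypoxia replicate 2 or 3. Acsl3, which sits at lipid droplets and the endoplasmic reticulum, and Acsl5, found at mitochondria and the endoplasmic reticulum, had log2 fold changes of −0.53 and −0.26, both with an edgeR adjusted p under the threshold but a fold change inside 1.5. Acsl3 shares exons on the same strand with Utp14b (log2 fold change −0.62), so reads of the pair may have been split between them. On the scale of CPM per kilobase, which divides CPM by the length of the principal transcript and allows genes to be compared, the make-up of the synthetase family shifted. Acsl1 took 47.9% ± 13.2 of the family's summed CPM per kb under normoxia (SD, n = 3) and 8.66% ± 1.54 under hypoxia. Acsl4 took 17.0% ± 4.87 under normoxia and 43.5% ± 1.13 under hypoxia, the largest share in each hypoxic library.

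Genes that mark adipocytes fell along with Acsl1. Of 7 adipocyte markers, 5 passed the filter on low counts and were called lower, and Lep was at 0 in all 6 libraries. Of the 5, Cidec and Retn passed the filter only through the normoxic libraries where they were high, so their direction was favored by the filter. Their summed level was 229, 516 and 201 CPM in the normoxic libraries and 10.1, 18.4 and 10.3 CPM in the hypoxic ones. Normoxia replicate 2 was the highest normoxic library and hypoxia replicate 2 the highest hypoxic library, for the markers and for Acsl1 alike. Adipoq, an adipocyte hormone, went from 45.2 ± 28.6 to 1.94 ± 0.985 CPM and Plin1, a lipid droplet coat protein of adipocytes, from 227 ± 114 to 8.70 ± 2.72 CPM. In bulk RNA, fewer cells of a type and less RNA per cell cannot be told apart, and the part of these transcripts in the result for Acsl1 was not tested. Other cell types were followed in the same way. Macrophage and leukocyte markers were called lower for 8 of 12. They summed to 960, 1701 and 1329 CPM under normoxia and 486, 861 and 586 CPM under hypoxia. Replicate 2 was thus the highest library of each group for these markers too, so that order was not particular to the adipocyte markers. Epithelial markers summed to 3.23 to 5.396 CPM under normoxia and 25.0 to 29.0 CPM under hypoxia, of which Krt19 alone made up 22.1 ± 1.66 CPM, with Epcam and Esrp1 at 0 in every hypoxic library. Their part in the members' values was not tested.

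**Figure D2:**
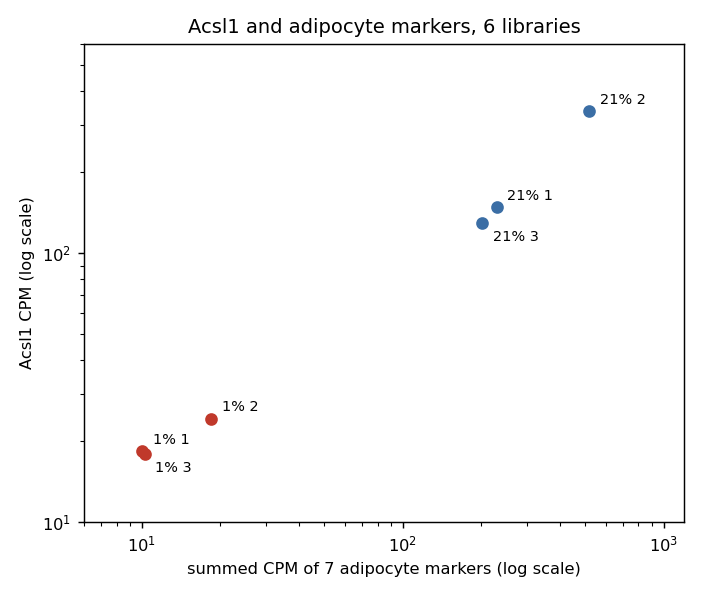
Acsl1 level (CPM, log scale) against the summed level of 7 adipocyte markers (CPM, log scale), 1 point a library. The normoxic libraries lie at 201 to 516 CPM of marker transcripts and the hypoxic libraries at 10.1 to 18.4 CPM.

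The carnitine shuttle was lower in sum, with opposite values within the CPT1 family. Slc22a5, the plasma membrane carnitine transporter OCTN2, stood at 17.9 ± 0.296 CPM under normoxia and 13.0 ± 0.498 CPM under hypoxia, a log2 fold change of −0.46 that lay inside the fold threshold. Cpt1a, the liver-type CPT1 that sets the rate of long-chain entry (chromosome 19, 3322334 to 3385733, plus strand), had 131, 113 and 118 CPM under normoxia and 67.6, 57.9 and 64.6 CPM under hypoxia. The hypoxic libraries were all well below the normoxic ones, and the 1.90-fold fall had a log2 fold change of −0.93 (SE 0.0760, edgeR adjusted p = 9.27e-06). Left-out libraries moved it between −0.98 and −0.87.

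Cpt1b, the muscle-type isoform, was rare, at 1.46, 1.75 and 1.87 CPM under normoxia and 4.202, 4.18 and 3.24 CPM under hypoxia. It was called higher (log2 fold change 1.19, SE 0.191, edgeR adjusted p = 0.000542), but this value is uncertain. Cpt1b shares exons on the same strand with Gm44502, a transcript that counted 27, 42 and 37 reads under normoxia and 134, 115 and 190 under hypoxia, and the gene just upstream, Chkb, also rose (log2 fold change 0.96), so reads of the locus may have been split among them. Cpt1c, the brain-enriched isoform of the endoplasmic reticulum, which has little activity toward fatty acid oxidation, stood at 83.0, 86.5 and 81.1 CPM under normoxia and 110.1, 106 and 118 CPM under hypoxia. Its groups did not overlap, at a log2 fold change of 0.41 (SE 0.0579, edgeR adjusted p = 0.000241) that lay inside the fold threshold. Per kilobase, Cpt1a made up 47.8% ± 2.298 of the CPT1 family under normoxia and 26.3% ± 1.24 under hypoxia, and Cpt1c 51.2% ± 2.20 and 71.3% ± 1.40. Cpt1a and Cpt1c were thus close to each other in the normoxic libraries, and Cpt1c was the main CPT1 transcript in each hypoxic one.

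Past CPT1, the inner membrane carrier and CPT2 differed less. Slc25a20, the carnitine-acylcarnitine translocase, had 39.0, 38.1 and 35.6 CPM under normoxia and 25.7, 25.8 and 26.1 CPM under hypoxia. The log2 fold change of −0.54 (SE 0.0596, edgeR adjusted p = 5.55e-05) stood just inside the fold threshold although no library overlapped. Cpt2, which returns the acyl group to coenzyme A in the matrix, had 37.3, 47.5 and 38.0 CPM under normoxia and 31.8, 37.0 and 33.8 CPM under hypoxia. The gap between the groups was under 1 CPM, at a log2 fold change of −0.26 (SE 0.100, edgeR adjusted p = 0.0477), and without normoxia replicate 2 it was −0.14 with an edgeR adjusted p of 0.119.

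**Figure D3:**
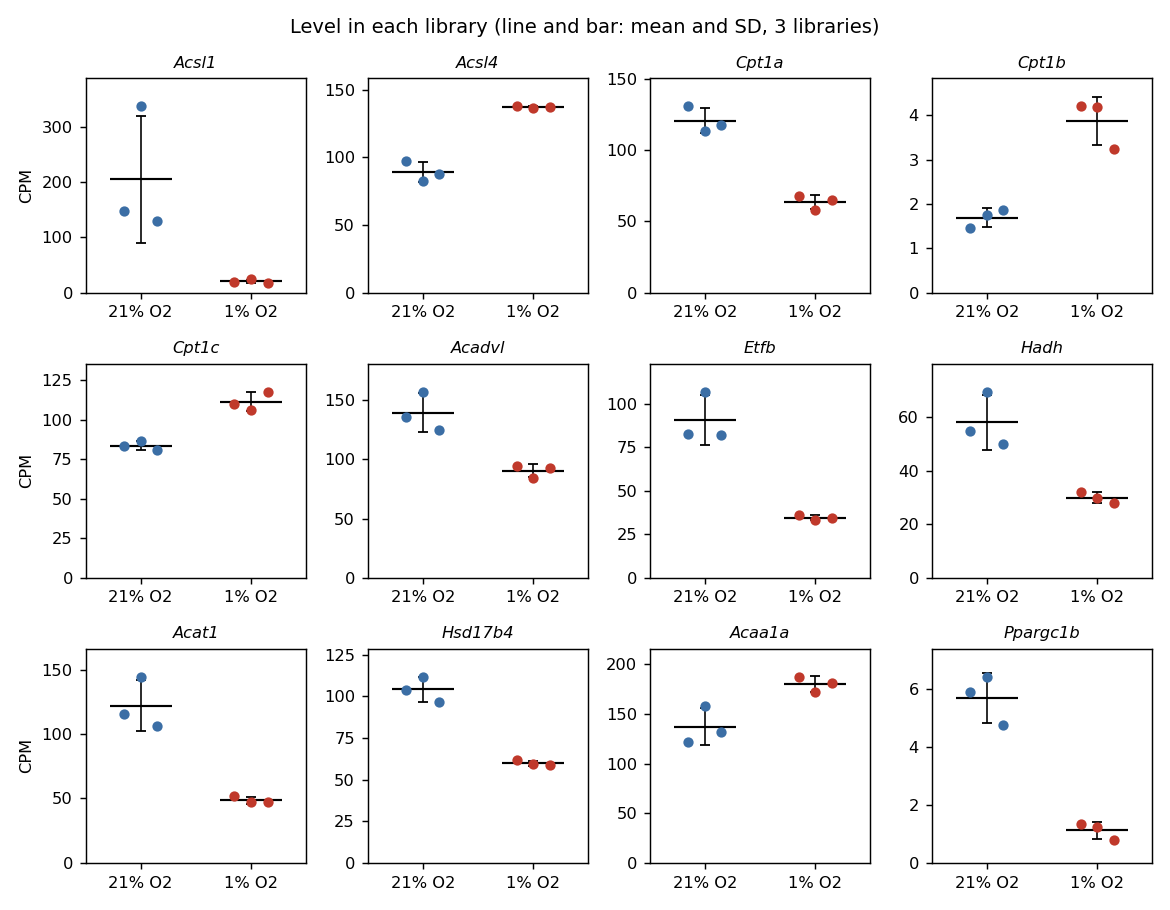
Level (CPM) of 12 members in each of the 6 libraries, with the mean and SD of 3 libraries a group; each panel starts at 0. Hypoxic points lie below the normoxic points for Acsl1, Cpt1a, Acadvl, Etfb, Hadh, Acat1, Hsd17b4 and Ppargc1b and above them for Acsl4, Cpt1b, Cpt1c and Acaa1a.

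Of the 8 acyl-CoA dehydrogenases, which take the first pair of electrons from the acyl chain, 7 had lower values under hypoxia and 1 was higher. Acadvl, which handles very long chains, stood at 136, 157 and 125 CPM under normoxia and 94.3, 84.3 and 93.1 CPM under hypoxia. Acads, for short chains, stood at 44.7, 52.5 and 42.8 CPM under normoxia and 30.3, 29.8 and 29.3 CPM under hypoxia. Both were called lower without overlap, Acadvl at a log2 fold change of −0.62 (SE 0.0866, edgeR adjusted p = 0.000231) and Acads at −0.65 (SE 0.0799, edgeR adjusted p = 0.000112), and both calls depended on normoxia replicate 2, without which the log2 fold changes were −0.53 and −0.56. Acadvl also lost its call without hypoxia replicate 2. The medium-chain, long-chain and branched-chain enzymes Acadm, Acadl and Acadsb were lower, as were Acad9, which also assembles respiratory complex I, and Acad11. Their log2 fold changes ran from −0.45 to −0.21, all under the adjusted p threshold and inside the fold threshold. With 1 library left out, the edgeR adjusted p of Acad11 reached 0.1.

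Acad10 was the exception. This little-studied dehydrogenase was rare, at 5.20, 5.24 and 5.64 CPM under normoxia and 8.25, 8.55 and 8.39 CPM under hypoxia. The 1.57-fold rise (log2 fold change 0.65, SE 0.106, edgeR adjusted p = 0.000605) came without overlap between groups. Its relative Acad12, which belongs to a list of other mitochondrial enzymes, went the same way, from 6.64 ± 1.06 to 10.1 ± 1.59 CPM, a log2 fold change of 0.61 (SE 0.154, edgeR adjusted p = 0.00710).

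Electron transfer to ubiquinone had the lowest ratio of the hypoxic to the normoxic summed level among the 9 steps, at 0.556. Etfb, the beta subunit of the electron transfer flavoprotein (chromosome 7, 43444083 to 43457800, plus strand), stood at 82.8, 107 and 82.3 CPM under normoxia and 35.9, 33.3 and 34.1 CPM under hypoxia. It fell 2.64-fold (log2 fold change −1.40, SE 0.102, edgeR adjusted p = 4.73e-06). Etfdh, the membrane enzyme that passes these electrons to ubiquinone, had 61.6, 77.2 and 59.1 CPM under normoxia and 41.5, 35.9 and 36.7 CPM under hypoxia, without overlap (log2 fold change −0.80, SE 0.104, edgeR adjusted p = 0.000163). Etfa, the alpha subunit and partner of Etfb in a heterodimer, had a smaller difference, a log2 fold change of −0.53 (SE 0.0641) that was not called. Per kilobase, the ratio of Etfb to Etfa was 1.24, 1.49 and 1.29 in the normoxic libraries and 0.797, 0.670 and 0.743 in the hypoxic ones, so transcripts of the beta subunit outnumbered those of the alpha subunit in each normoxic library and were outnumbered in each hypoxic one. The groups did not overlap, and the two-sided exact permutation p of 0.1 was the smallest that 20 splits allow (0.1 after adjustment over 2 ratios).

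The later steps, from hydration to thiolysis, followed with 4 of 6 members called lower. Echs1, the short-chain enoyl-CoA hydratase, stood at 88.9, 108 and 87.6 CPM under normoxia and 46.3, 47.5 and 47.0 CPM under hypoxia, a 2.02-fold fall (log2 fold change −1.01, SE 0.0809, edgeR adjusted p = 8.02e-06). Hadh, the 3-hydroxyacyl-CoA dehydrogenase of shorter chains, stood at 54.6, 69.5 and 49.7 CPM under normoxia and 31.97, 29.6 and 27.97 CPM under hypoxia (log2 fold change −0.96, SE 0.116, edgeR adjusted p = 0.000101). Neither gene had overlapping groups. Acat1, the mitochondrial acetoacetyl-CoA thiolase, which also serves ketone body and isoleucine breakdown, had 115, 145 and 106 CPM under normoxia and 51.7, 47.3 and 47.0 CPM under hypoxia. It fell 2.51-fold (log2 fold change −1.33, SE 0.107, edgeR adjusted p = 8.63e-06), the second largest fall among the mitochondrial members after Etfb. Acaa2, the matrix thiolase, was lower by a log2 fold change of −0.46 (SE 0.0732) and was not called.

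Hadha and Hadhb encode the subunits of the trifunctional protein, the inner membrane complex that carries out these steps on long chains. They lie head to head on chromosome 5, and their windows around the starts overlap by 228 bases, from 30155003 to 30155230. The shared region is shown as the window of Hadhb, with its 1 match to ACGTG or GCGTG in capitals, which lies outside the shared part.
Hadhb, chr5:30155003-30155302, plus strand: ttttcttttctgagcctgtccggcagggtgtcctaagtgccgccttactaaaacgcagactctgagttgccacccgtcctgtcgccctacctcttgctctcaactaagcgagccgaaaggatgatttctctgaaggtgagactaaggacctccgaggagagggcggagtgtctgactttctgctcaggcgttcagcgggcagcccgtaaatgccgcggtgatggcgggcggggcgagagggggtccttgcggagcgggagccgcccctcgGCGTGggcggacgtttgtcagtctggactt
Hadhb stood at 78.2, 78.2 and 68.6 CPM under normoxia and 51.2, 49.3 and 49.3 CPM under hypoxia. Its 1.503-fold fall (log2 fold change −0.59, SE 0.0640, edgeR adjusted p = 5.13e-05) lay at the fold threshold and was lost when normoxia replicate 1 or 2 or hypoxia replicate 2 or 3 was left out. Hadha was at 116, 122 and 110 CPM under normoxia and 90.2, 85.2 and 88.9 CPM under hypoxia (log2 fold change −0.39, SE 0.0562, edgeR adjusted p = 0.000277), inside the fold threshold. The ratio of Hadhb to Hadha per kilobase was 1.33, 1.26 and 1.22 under normoxia and 1.11, 1.13 and 1.09 under hypoxia (two-sided exact permutation p = 0.1), a log2 difference of −0.19 where that of Etfb to Etfa was −0.86.

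Exons of 7 members, among them Acadvl, Etfdh, Echs1, Hadha and Acaa1a, overlap a tested gene on the opposite strand, and the strand setting of the counting is not stated, so reads of such a pair cannot be told apart. The log2 fold changes of these opposite-strand neighbours lay between −0.54 and 0.05, closer to 0 than those of Etfdh and Echs1.

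Unsaturated fatty acids need extra enzymes to shift or remove their double bonds, and these genes differed by the compartment assigned to them here. Eci1 and Decr1, the mitochondrial enoyl-CoA isomerase and dienoyl-CoA reductase, were called lower. Eci1 stood at 28.4, 34.2 and 25.9 CPM under normoxia and 14.8, 14.3 and 14.9 CPM under hypoxia (log2 fold change −1.01, SE 0.102, edgeR adjusted p = 3.3e-05). Decr1 stood at 45.1, 52.6 and 42.1 CPM under normoxia and 25.9, 28.3 and 26.9 CPM under hypoxia (log2 fold change −0.78, SE 0.0865, edgeR adjusted p = 5.55e-05). Eci2, which is also found in mitochondria, and Decr2, both assigned here to the peroxisome, showed no difference that these libraries could resolve. Eci2 had a log2 fold change of −0.04 (95% confidence interval −0.17 to 0.10, edgeR adjusted p = 0.608) and Decr2 of 0.03 (−0.11 to 0.17, edgeR adjusted p = 0.673), so a change of 1.5-fold lay outside both intervals. Their normoxic and hypoxic libraries overlapped.

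The peroxisomal cycle itself was split. Hsd17b4, the multifunctional enzyme that hydrates and dehydrogenates straight and branched chains, was the peroxisomal member called lower, at 104, 112 and 96.9 CPM under normoxia and 61.7, 59.4 and 58.6 CPM under hypoxia. Its 1.74-fold fall had a log2 fold change of −0.80 (SE 0.0631, edgeR adjusted p = 7.34e-06). Acaa1a, the peroxisomal thiolase, was higher without overlap, at 122, 158 and 132 CPM under normoxia and 187, 171.8 and 181 CPM under hypoxia. The log2 fold change of 0.39 (SE 0.0914, edgeR adjusted p = 0.00461) stayed inside the fold threshold. Acaa1a has a near-identical copy, Acaa1b, which fell from 104, 184 and 111 counts to 38, 48 and 42, and the split of reads between the copies is uncertain, although Acaa1b held far fewer counts than the 3163 to 5759 of Acaa1a. Acox3, a branched-chain oxidase, and Ehhadh, the peroxisomal bifunctional enzyme, had log2 fold changes of 0.25 (edgeR adjusted p = 0.0187) and −0.41 (edgeR adjusted p = 0.0234) and were not called. With 1 library left out, their edgeR adjusted p reached 0.0711 and 0.0685.

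Taken by compartment, the summed level of the mitochondrial genes was lower in each hypoxic library, while that of the peroxisomal genes overlapped between groups through normoxia replicate 2 alone. Of the 23 mitochondrial members 11 were called lower, or 47.8% where 15.3% of all tested genes were, with a median log2 fold change of −0.54. The 2 called higher, Cpt1b and Acad10, made up 8.7% of them where 18.9% of all tested genes were called higher. The summed level of these 23 went from 1527 ± 145 to 957 ± 10.7 CPM (SD, n = 3), or 0.627 of the normoxic level. By library it was 1492, 1687 and 1403 CPM under normoxia and 969, 949 and 953 CPM under hypoxia. Normoxia replicate 2 was also the highest library for the adipocyte and macrophage markers. It held the highest normoxic value for 18 of the 23, or 78.3%, and for the 6 tested peroxisomal members, or 100%, against 43.1% of all tested genes. The part of adipocyte and macrophage transcripts in the sums was not tested. Of the 6 tested peroxisomal members Hsd17b4 alone was called, or 16.7% lower where 15.3% of all tested genes were. The median log2 fold change over the 6 was −0.002. Without the fold threshold 2 were lower and 2 higher, or 33.3% each, near the 31% and 31.8% of all tested genes. The summed level of the peroxisomal members was 364, 422 and 368 CPM under normoxia and 399, 380.2 and 387 CPM under hypoxia. The hypoxic libraries thus lay below normoxia replicate 2 and above the other 2 normoxic libraries. This sum leaned on Acaa1a, without which it went from 248 ± 14.4 to 209 ± 2.98 CPM, or 0.843 of the normoxic level. By step, the summed level under hypoxia was 0.725 of the normoxic level for the acyl-CoA dehydrogenases, 0.579 for hydration to thiolysis and 0.839 for the carnitine shuttle. The shuttle ratio was raised by Cpt1c of the endoplasmic reticulum, which went from 83.5 ± 2.73 to 111 ± 6.04 CPM, while Cpt1a went from 121 ± 8.95 to 63.4 ± 4.97 CPM. A list of 13 genes for mitochondrial mass and import, set beside these sums, went from 2173 to 2454 CPM under normoxia to 2142 to 2184 CPM under hypoxia. Of these, 3 were called lower (23.1%) and 1 higher (7.69%), with a median log2 fold change of −0.24. Without the fold threshold 9 of the 13 were lower, or 69.2%, where 21 of the 23 mitochondrial members were, or 91.3%, and 31% of all tested genes. The sum leaned on Vdac1, an outer membrane channel that rose from 169 ± 11.9 to 403 ± 16.3 CPM, and without it the other 12 went from 2141 ± 129 to 1760.0 ± 12.9 CPM, or 0.822 of the normoxic level.

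**Figure D4:**
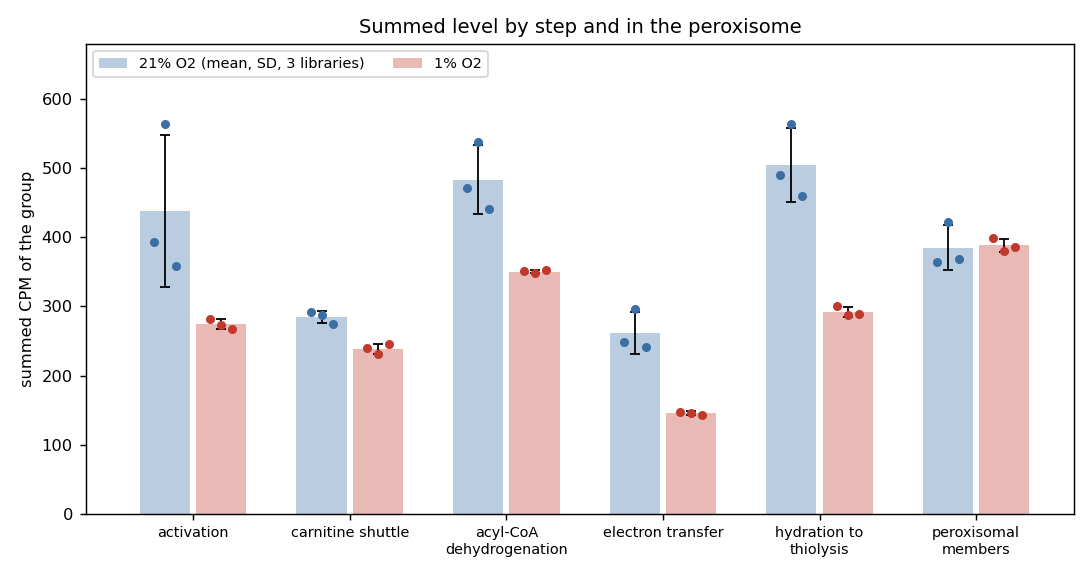
Summed level (CPM) of the members of 5 steps and of the 7 peroxisomal members in each library (points), with the mean (bar) and SD over 3 libraries a group. The hypoxic libraries lie below every normoxic library for the 5 steps, and for the peroxisomal members they lie below normoxia replicate 2 (422 CPM) and above the other 2 normoxic libraries (364 and 368 CPM).

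On the scale of CPM per kb the make-up of the thiolases shifted. These shares restate the gene values given above, and Acaa1a is the only peroxisomal gene among them. Acaa1a made up 44.1% ± 2.10 of the summed level of Hadhb, Acaa2, Acat1 and Acaa1a under normoxia and 63.9% ± 0.567 under hypoxia, while Acat1 went from 20.3% ± 1.17 to 8.94% ± 0.248. Among the members, the most abundant transcript per kilobase was Etfb under normoxia (102 ± 15.8 CPM per kb), followed by Acaa1a (77.8 ± 10.7) and Etfa (75.6 ± 4.71), and the latter pair did not differ beyond their spread. Under hypoxia Acaa1a led (102 ± 4.46 CPM per kb), ahead of Etfa (52.5 ± 2.72), and Etfb (38.6 ± 1.53) stood below Acadvl (41.8 ± 2.51) and Cpt1c (39.8 ± 2.16) by margins within their spread.

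**Figure D5:**
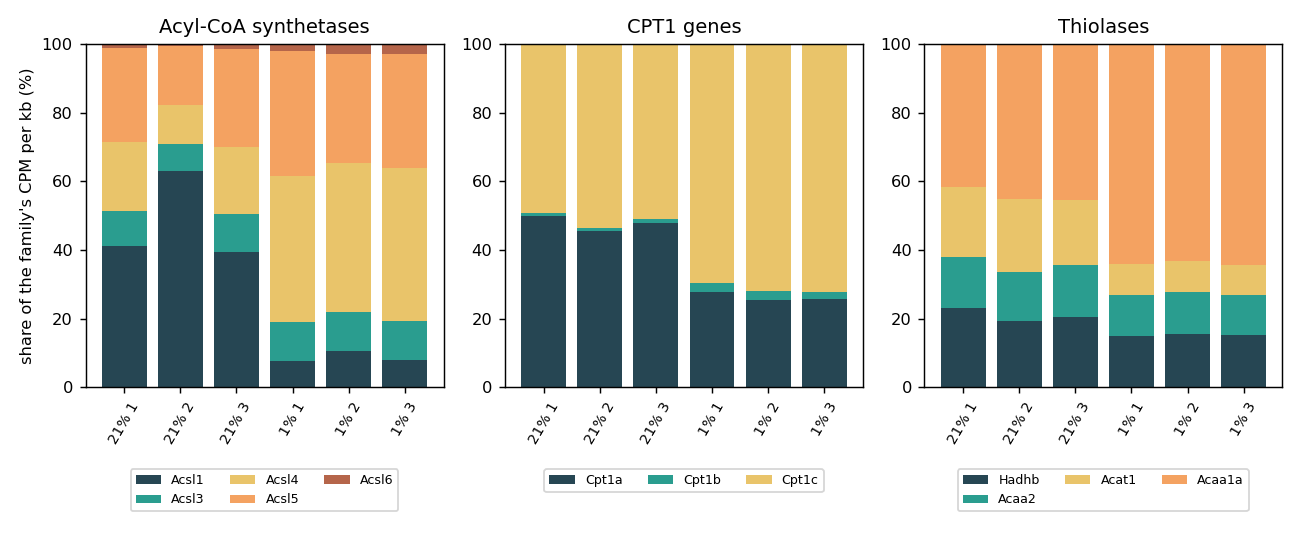
Share of each gene in the summed CPM per kb of its family (%), for 5 acyl-CoA synthetases, 3 CPT1 genes and 4 thiolases, 1 bar a library. From 21% to 1% O2 the share of Acsl1 went from 47.9% to 8.66%, that of Cpt1a from 47.8% to 26.3% and that of Acaa1a from 44.1% to 63.9% (means of 3 libraries).

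Among the regulators both PGC-1 coactivators fell, and the PPAR receptors among the members, Ppara and Ppard, did not pass the rule. Pparg was not among the genes followed here. Ppargc1a, the coactivator of mitochondrial biogenesis and fatty acid oxidation, had 6.62, 5.66 and 5.15 CPM under normoxia and 2.83, 2.74 and 2.26 CPM under hypoxia (log2 fold change −1.16, SE 0.165, edgeR adjusted p = 0.000267). Ppargc1b, its close relative, had 5.89, 6.41 and 4.75 CPM under normoxia and 1.34, 1.24 and 0.786 CPM under hypoxia. It fell 5.09-fold (log2 fold change −2.35, SE 0.227, edgeR adjusted p = 2.47e-05), the largest fall of any member after Acsl1. Both coactivators were rare, but every library was far above its floor of 3 counts, with 25 counts as the lowest. Ppara, the receptor best known for driving these genes in liver, was the rarest tested member, at 1.16, 2.01 and 1.14 CPM under normoxia and 1.296, 0.830 and 0.817 CPM under hypoxia. These groups overlapped (log2 fold change −0.56, 95% confidence interval −1.28 to 0.15, edgeR adjusted p = 0.149), and the interval is too wide to tell a fall of 1.5-fold from no change. Ppard, the widely expressed receptor, was the most abundant regulator here, at 65.7, 70.0 and 73.8 CPM under normoxia and 82.6, 88.4 and 80.6 CPM under hypoxia. It was higher in each hypoxic library by a margin inside the fold threshold (log2 fold change 0.26, SE 0.0623, edgeR adjusted p = 0.00489).

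Letters of known motifs were sought in the RefSeq windows around the starts, of which 38 were at hand for 34 members. No window was at hand for Acaa2, Acad9, Acat1, Cpt1b, Decr1, Hsd17b4 or Ppargc1b. ACGTG or GCGTG stood on either strand in 22 of the 38 windows, each of a different gene, where 43.8% of all 32851 windows held them. By outcome, 2 of 3 members called higher, 8 of 11 called lower and 12 of 19 tested but not called held a match. A direct repeat bound by PPAR, spelled AGGTCANAGGTCA, was in no member's window and in 0.0396% of all windows. TCAAGGTCA, the half-site of estrogen-related receptors, which act with PGC-1, was found in the window of Acsl6 alone among members and in 0.423% of all windows. Motif matches are letters in a window and do not show binding.

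Genes that surround the pathway were followed through 91 further genes in 9 lists, of which 87 were tested. Of these, 30 were called lower and 7 higher, against 15.3% and 18.9% of all tested genes. Fatty acid uptake and activation had 6 of 12 lower and 2 higher. Fabp4, the fatty acid binding protein of adipocytes and some macrophages, went from 639 ± 378 to 54.4 ± 7.09 CPM (log2 fold change −3.56, SE 0.360, edgeR adjusted p = 3.34e-05), with normoxia replicate 2 the highest library, as for the adipocyte markers. Acsbg1, a synthetase of very long chains, was called higher, with 9, 3 and 5 counts under normoxia and 43, 44 and 73 under hypoxia (edgeR adjusted p = 0.000151). It passed the filter only through the hypoxic libraries, and 1 normoxic library lay at the floor of 3 counts. Lipolysis, which frees fatty acids from stored triglyceride, had 5 of 7 lower and 1 higher. The fall was largest for Mgll, the monoglyceride lipase (21.0 ± 13.5 to 3.74 ± 1.26 CPM, log2 fold change −2.47, SE 0.434, edgeR adjusted p = 0.000939), and the gene that rose was Hilpda, a hypoxia-inducible inhibitor of the triglyceride lipase ATGL. G0s2, another ATGL inhibitor, named after its values were seen, fell from 618 ± 127 to 217 ± 24.3 CPM, so the inhibitors did not move together. All 5 genes called lower were highest in normoxia replicate 2 among the normoxic libraries, as the adipocyte markers were, with Mgll at 14.6, 36.5 and 11.8 CPM and Lipe, the hormone-sensitive lipase, at 37.4, 72.8 and 35.7 CPM, and the part of adipocyte transcripts in these values was not tested. Hilpda went from 15.1 ± 1.91 to 126 ± 17.1 CPM (log2 fold change 3.06, SE 0.119, edgeR adjusted p = 1.25e-07).

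Other acyl-CoA breakdown in mitochondria followed the beta-oxidation enzymes, with 7 of 16 called lower and 1, Acad12, higher, and a median log2 fold change of −0.38. Without the fold threshold 10 of the 16 were lower and 3 higher. Pcca, the alpha subunit of propionyl-CoA carboxylase, which handles the last fragment of odd and branched chains, fell from 38.0 ± 5.76 to 10.9 ± 0.385 CPM (log2 fold change −1.80, SE 0.110, edgeR adjusted p = 1.67e-06). Of 5 ketone body genes 2 were called lower. Oxct1, which activates acetoacetate so that it can be burned, fell 4.76-fold, from 246 ± 17.3 to 51.7 ± 3.19 CPM (log2 fold change −2.25, SE 0.0728, edgeR adjusted p = 5.82e-08). Among 19 tested peroxisomal genes outside the members 5 were called lower and 1 higher, with a median log2 fold change of −0.34. Without the fold threshold 12 of these 19 were lower and 3 higher, or 63.2% lower, where 62.5% of the 16 mitochondrial genes were. Acot3, a rare peroxisomal thioesterase, fell from 36, 86 and 17 counts to 1, 5 and 2 (edgeR adjusted p = 0.000841), which left 2 hypoxic libraries under the floor of 3 counts. Acot3 passed the filter on low counts only through the normoxic libraries where it was high, so its direction was favored by the filter. Acot4 rose from 3.36 ± 1.44 to 6.98 ± 1.42 CPM (log2 fold change 1.06, edgeR adjusted p = 0.00803).

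Malonyl-CoA, the inhibitor of CPT1, is made by acetyl-CoA carboxylase and restrained by AMP-activated kinase. Of the 8 genes of this control, Acaca, the cytosolic carboxylase, fell from 102 ± 12.6 to 39.0 ± 2.14 CPM (log2 fold change −1.39, SE 0.0899, edgeR adjusted p = 2.29e-06), and Prkab2, a beta subunit of the kinase, rose from 19.5 ± 1.09 to 64.3 ± 1.202 CPM (log2 fold change 1.72, SE 0.0608, edgeR adjusted p = 7.95e-08). Acacb, the carboxylase at the mitochondrial surface, was named after its values were seen and went the other way, at a log2 fold change of 0.38 (edgeR adjusted p = 0.0203) inside the fold threshold. Carnitine supply had 2 of 5 tested genes lower, led by Slc25a29, a mitochondrial carrier of basic amino acids first described as carnitine carrier-like (log2 fold change −1.49, SE 0.185, edgeR adjusted p = 0.000118). Of the 11 other regulators, Rxra, the partner of the PPARs on DNA, was called lower, from 179 ± 0.889 to 96.9 ± 5.84 CPM (log2 fold change −0.88, SE 0.0573, edgeR adjusted p = 2.3e-06). Of the 4 tested genes known to respond to PPARs, Angptl4, an inhibitor of lipoprotein lipase that low oxygen also induces, rose from 116 ± 5.51 to 513 ± 10.7 CPM (log2 fold change 2.14, SE 0.0587, edgeR adjusted p = 3.11e-08), and Ucp2, an inner membrane carrier, fell from 41.05 ± 8.67 to 10.2 ± 2.63 CPM (log2 fold change −1.999, SE 0.193, edgeR adjusted p = 2.52e-05).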

How the data were processed

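Per the labels and the study's methods, poly(A) RNA was sequenced on a NovaSeq-6000, and the authors removed adapters with Cutadapt, mapped reads to GRCm38 with STAR (version 2.6.1b) and assigned them to genes with RSEM (version 1.3.1). The deposited values are expected counts, estimated per gene and not normalized between libraries. None had a fraction, so rounding changed nothing. The annotation release and strand setting are not given in the sources used here. Names, positions and transcript lengths came from GENCODE M21, which held 55240 of 55421 gene identifiers. The other 5 features are transgenes and were not tested.

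edgeR (version 4.0.16, limma 3.58.1, R 4.3.3) was run on all genes with filterByExpr, TMM and the quasi-likelihood F test, and p-values were adjusted by Benjamini-Hochberg over all 16207 tested genes. The fold change threshold of 1.5 and adjusted p threshold of 0.05 follow the study's methods, whose DESeq2 (here version 1.42.0) was an alternative. Standard errors were derived from the fold change and its F value. CPM use TMM-scaled library sizes, and ± gives the SD of 3 libraries. Alternatives were other scalings, filters, tests, thresholds, GC and length offsets, the replicate number as a block and each library left out. No 2 libraries of a group agreed within sampling noise. Members called, rate-setting shuttle genes and regulators are named with every library's value, and from each pathway list the called gene with the largest rise and the largest fall. The members and lists were chosen with earlier results of these data known. Figures were drawn with matplotlib (version 3.10.9). One allele of the tumor line is not reported here.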

Additional observations from a re-analysis of the deposited data

How the results depend on the processing

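Each of the 40 tested members was recomputed under 20 alternatives, and of these 800 comparisons 746 kept their direction and side of the threshold, 33 lost and 19 gained a call, and 2 changed sign. Those were Eci2, at a log2 fold change of 0.0087 without normoxia replicate 2, and Decr2, at −0.014 without hypoxia replicate 2, which ran from −0.085 to 0.0087 and from −0.014 to 0.071 with 1 library left out. Without a fold change threshold, by construction, 8 members were called higher and 29 lower, 22 pathway genes higher and 46 lower, and 5150 of all genes higher and 5018 lower. At a fold change of 2, 1 member was higher and 7 lower, 6 and 20 of the pathway genes, and 1929 and 1227 of all genes. A gene length offset left 1 member called higher, with Acsl4, Acsl6 and Acad10 lost and Slc25a20 gained as lower, and a GC content offset lost Acsl4; the cause was not tested. With 1 library left out, 2 to 4 members were called higher and 12 to 15 lower. Normoxia replicate 2 weighed most, since 14 of the 19 member calls remained without it. The median log2 fold change of the members was −0.51 to −0.39 over these fits. The scaling of the libraries moved the share of higher among all calls from 53.1% to 55.7%, and every member call but that of Acsl6 kept its side. Acsl6, Cpt1b, Ppara and the PGC-1 genes had the lowest counts of the tested members, and depth was not varied.

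Normoxic and hypoxic libraries share the replicate numbers 1 to 3, and the sources do not say that they were paired. After the group means were removed, same-numbered libraries correlated at 0.142, 0.139 and 0.0378 over all tested genes, and each correlated best with its own number, a hint from the data and not the design. With the replicate number as a block in edgeR, 4 members were called higher and 15 lower, with 19 of 19 calls shared, and in DESeq2 the block lost Acsl6 alone. The GC offset with the replicate block lost Acsl4.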
